A study of Mus musculus with 6 samples.

Results

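Globins are the chains of haemoglobin, the oxygen carrier of red cells. The genes described here are 6 mouse globin genes, with 3 embryonic chains (Hba-x, Hbb-y and Hbb-bh1) and 3 adult type chains (Hba-a1, Hbb-b1 and Hbb-b2). They were read from all probe sets that the platform annotation pairs with 1 of these symbols alone, a probe set being a group of short oligonucleotides designed against 1 transcript. By this rule 6 probe sets represented 5 of the 6 genes, out of 8251 genes with such a probe set on the array. Hbb-y had 2 probe sets, and Hbb-b1 had none of its own. The tissue was lung of mouse embryos at E11.5, dissected into 2 regions with 3 arrays each. The branching region was taken from the left and the right lung together, and the non-branching region was the main bronchi with a piece of trachea. The labels name no strain, sex or treatment. Nor do they say whether replicates 1 to 3 came from separate embryos, so the p-values speak for the scatter among these 3 arrays per region, which could be technical.

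As background, a mammalian haemoglobin tetramer pairs alpha type with beta type chains, and each type comes from a cluster of genes that are used in turn during development. The first red cells of the mouse embryo form in the yolk sac, circulate with their nuclei and make embryonic haemoglobins together with adult alpha chains; these are the primitive red cells. Definitive red cells come later, first from the fetal liver, and make the adult type chains. Within maturing primitive cells, the use of Hbb-bh1 is known to decline while that of Hbb-y increases. The lung does not make red cells, so globin RNA in a dissected lung is usually taken to be that of blood in its vessels or on its surface.

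The alpha cluster lies on chromosome 11 and the beta cluster on chromosome 7. In the RefSeq annotation of GRCm38.p6, Hba-x precedes Hba-a1 in the direction of transcription, and Hbb-y precedes Hbb-bh1. Promoter sequence from RefSeq (GRCm38.p6) was matched for 3 of the 6 genes. The windows below are the 150 bases before the annotated start of the genes whose probe sets gave the clearest differences between the regions, 2 embryonic and 1 adult type, and are shown 5′ to 3′ on the gene's strand. Capitals mark matches on either strand to 4 short motifs of red cell and general promoters. These are the CACCC box, the CCAAT box, a GATA motif (the letters GATA with A or T before them and A or G after them) and a TATA-like motif, which is TATAA or its shifted form ATAAA.
Hba-x (chr11:32276450-32276599, + strand): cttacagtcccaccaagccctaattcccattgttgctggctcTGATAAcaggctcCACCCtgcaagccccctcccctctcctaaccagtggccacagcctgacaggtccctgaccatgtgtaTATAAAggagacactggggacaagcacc
Hba-a1 (chr11:32283522-32283671, + strand): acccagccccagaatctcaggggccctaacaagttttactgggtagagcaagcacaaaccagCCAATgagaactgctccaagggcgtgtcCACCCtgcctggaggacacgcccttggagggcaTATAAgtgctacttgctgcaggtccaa
Hbb-y (chr7:103853208-103853357, - strand): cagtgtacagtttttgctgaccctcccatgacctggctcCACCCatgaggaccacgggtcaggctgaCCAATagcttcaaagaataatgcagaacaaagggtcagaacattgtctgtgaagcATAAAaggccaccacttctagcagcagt

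All 3 windows held a CACCC match, which began 95 bases before the start in Hba-x, 60 in Hba-a1 and 111 in Hbb-y. CACCC was present in 37.4% of the 32843 RefSeq promoter windows of this length. All 3 also held a TATA-like match that began 27 or 28 bases before the start, a sequence found anywhere in 28.7% of the windows; in Hba-x both TATA-like sequences matched and overlap. A CCAAT match (24.5% of the windows) was found in Hba-a1 and Hbb-y, and a GATA match (16% of the windows) in Hba-x. The promoter windows of Hba-a1 and of its neighbour Hba-a2 share a run of 147 bases, and these genes are near-identical copies. These matches describe the sequence and show no binding.

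Embryonic and adult type globin signals were both higher in the branching region. Hba-x, Hba-a1, Hbb-y and Hbb-b2 rose between 1.37-fold and 1.92-fold, while Hbb-bh1, the embryonic chain that is used first in primitive cells, showed no difference beyond its spread. Of the 6 member probe sets, 5 passed a limma adjusted p under 0.05, all of them higher in branching: 3 of the 4 embryonic and both adult type probe sets. Over the whole array 0.902% of the 9316 probe sets tested passed in this direction (2.03% in either direction), and among the 1304 tested probe sets at least as bright as the dimmest globin member the share was 3.53%. The median log2 difference, branching minus non-branching, was 0.76 over the members and -0.0046 over all probe sets tested. In 5 of the 6 member probe sets all branching arrays lay above all non-branching arrays, as did 9.79% of all probe sets tested. In dissected tissue, fewer red cells and less globin RNA per red cell cannot be told apart. Signals are the deposited intensities on a linear scale, and the level of 1 probe set cannot be set against that of another.

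**Figure D1:**
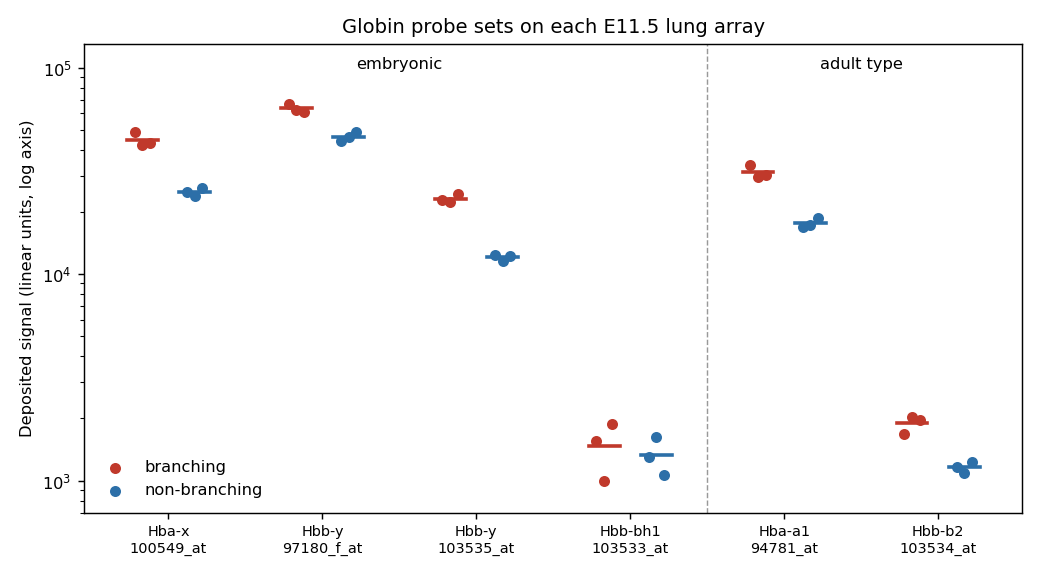
Deposited signal (log axis) of the 6 globin member probe sets on each array, with branching in red and non-branching in blue; points are arrays and bars are means of 3. The branching points lie above the non-branching points in 5 probe sets, while those of Hbb-bh1 are mixed between 996 and 1873.

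Hba-x encodes the embryonic zeta chain, the first alpha type chain of the embryo. Its signal was 48817, 42295 and 42870 on the branching arrays, against 25015, 23827 and 26099 on the non-branching arrays. The groups were far apart, and branching replicate 1 was the highest. Hba-x rose 1.79-fold (log2 difference 0.84 ± 0.09, SE, n = 3 per region, limma adjusted p = 0.00158), with a 95% interval of 1.56-fold to 2.04-fold.

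Hba-a1 encodes an adult alpha chain, which primitive red cells also make. It read 33556, 29527 and 30130 in branching, against 16933, 17240 and 18632 in non-branching. The order of the branching arrays was that of Hba-x, with replicate 1 again the highest and no overlap between the regions. Hba-a1 rose 1.76-fold (0.82 ± 0.08 on the log2 scale, limma adjusted p = 0.00158). Over the 6 arrays the log2 signals of Hba-x and Hba-a1 had a Pearson correlation of 0.997, a description of points that share their arrays and regions.

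A further probe set is paired with 2 adult alpha symbols and is therefore no member; its name marks it as a design that may bind several genes of a family. Its signal was 4989, 5995 and 4646 in branching, against 3144, 4677 and 4497 in non-branching, so the regions overlapped. It did not pass (0.36 ± 0.16, limma adjusted p = 0.348), with a 95% interval of 0.997-fold to 1.65-fold. Another alpha-related probe set belongs to the pseudogene Hba-ps3, which makes no chain, and differed by -0.10 ± 0.12 (adjusted p = 0.757).

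Hbb-y encodes the embryonic epsilon-y chain, the main embryonic beta type chain of later primitive cells. Of its 2 probe sets, the one designed for a single gene read 22903, 22326 and 24287 in branching, against 12353, 11584 and 12206 in non-branching. The arrays within each region were close together and the regions did not overlap. On this single-gene probe set Hbb-y rose 1.92-fold (0.94 ± 0.08 on the log2 scale, limma adjusted p = 0.000718), the largest rise among the member probe sets.

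The brighter Hbb-y probe set, named as a design that may bind several genes of a family, read 66686, 62509 and 60981 in branching, against 44082, 46303 and 48465 in non-branching. The regions did not overlap here either, but the rise was smaller, at 1.37-fold (0.45 ± 0.08, limma adjusted p = 0.0214). The 2 probe sets of Hbb-y thus gave different sizes of change, with 95% intervals of 1.71-fold to 2.17-fold for the single-gene probe set and 1.21-fold to 1.55-fold for the family probe set, which do not overlap. Within an array, the log2 ratio of the family to the single-gene probe set had a mean of 1.45 ± 0.11 on the branching arrays, against 1.94 ± 0.09 on the non-branching arrays (SD, n = 3 each), without overlap. What sets them apart, such as binding to other beta globin RNAs or the brightness of the family probe set, was not tested.

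Hbb-bh1 encodes the other embryonic beta type chain, beta-h1. It had a signal of 1562, 996 and 1873 in branching, against 1299, 1622 and 1069 in non-branching. The arrays of the regions were mixed, with the lowest value and the highest value both in branching. The log2 difference was 0.12 ± 0.24 (limma adjusted p = 0.864), with a 95% interval of 0.752-fold to 1.58-fold. This interval leaves room for a rise as large as that of Hbb-y on the family probe set, but not for the 1.92-fold of the single-gene probe set. Without branching replicate 3 the log2 difference was -0.072 and without non-branching replicate 3 it was -0.023, so the sign rests on single arrays.

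Hbb-b2 encodes an adult beta chain. It read 1686, 2039 and 1964 in branching, against 1158, 1084 and 1234 in non-branching. The regions did not overlap, and branching replicate 1 was the lowest of its group, unlike in Hba-x, in Hba-a1 and on the family probe set of Hbb-y. Hbb-b2 rose 1.63-fold (0.71 ± 0.12 on the log2 scale, limma adjusted p = 0.0219).

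The gene Hbb-b1, the adult beta-major chain, could be read only through probe sets shared with other adult beta genes. One of these is paired with 4 adult beta symbols, and its name marks a design shared between transcripts. It read 8730, 7759 and 8142 in branching, against 4012, 4148 and 4353 in non-branching, with no overlap and little spread within a region. It rose 1.97-fold (0.98 ± 0.09 on the log2 scale, limma adjusted p = 0.00104). The other was paired with the same symbols but stayed between 7.2 and 27.8 on all 6 arrays, below the background level of 147, and was not tested. The RefSeq reference strain carries the adult beta genes under the names Hbb-bs and Hbb-bt. Which adult beta alleles these embryos carried is not stated in the labels, and near-identical adult beta RNAs cannot be told apart by these signals.

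**Figure D2:**
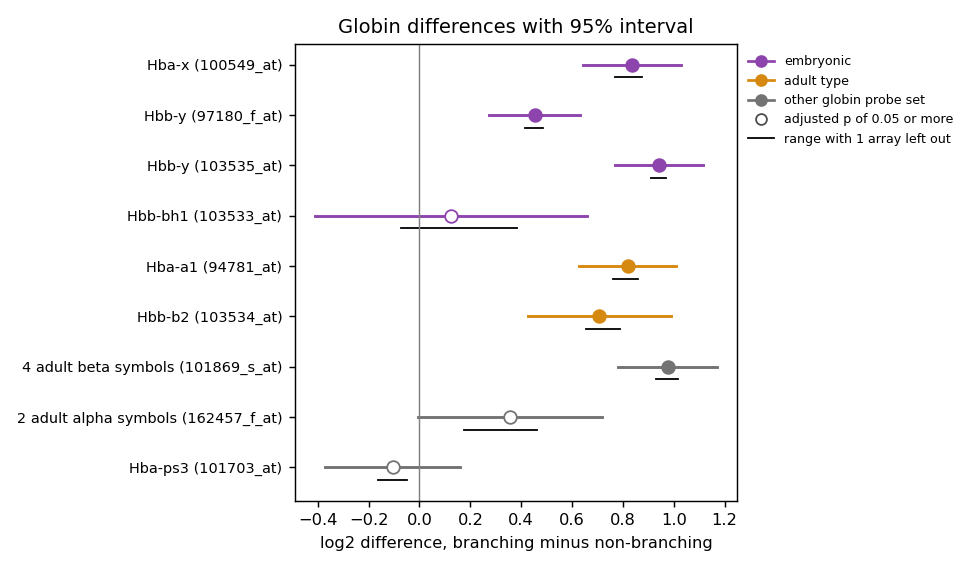
Log2 difference (branching minus non-branching) of each tested globin probe set with its 95% interval from limma, with embryonic members in purple, adult type members in orange and other globin probe sets in grey; thin black lines span the values with 1 array left out. Hba-x (0.84), Hbb-y on its single-gene probe set (0.94), Hba-a1 (0.82) and the shared adult beta probe set (0.98) lie close together, and Hbb-bh1 (0.12) and Hba-ps3 (-0.10) lie near 0.

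The calls differed in how far they held. Hba-x, Hba-a1 and Hbb-y on its single-gene probe set passed with any 1 array left out, with adjusted p-values up to 0.0150, 0.0150 and 0.00913. Hbb-b2 passed only without branching replicate 1, as did Hbb-y on the family probe set. Leaving out any of the other 5 arrays ended both calls, with adjusted p-values of 0.0588 to 0.103 for Hbb-b2 and of 0.0560 to 0.110 for the family probe set. The calls also rest on the variance model: when limma let the variance be independent of signal, it called 0 of the 6 member probe sets, with 5 at an unadjusted p under 0.05, and 5 probe sets of the whole array as higher. When no variance was shared between probe sets, Hbb-y on its single-gene probe set was the 1 member that passed (adjusted p = 0.0477).

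Embryonic and adult type chains were set against each other by ratios within an array. These names are those of chains, so the ratios give no share of primitive or definitive cells. A ratio within an array cancels what scales all globin signals of that array alike. Whether the amount of blood does so was not tested, and the ratio of the 2 Hbb-y probe sets to each other itself differed by -0.49 between the regions. The ratios rest on the members, which were chosen with earlier results known, so they are given as values with no p. In the alpha cluster the log2 ratio of embryonic Hba-x to adult type Hba-a1 was 0.54, 0.52 and 0.51 in branching, against 0.56, 0.47 and 0.49 in non-branching. The regions overlapped, and their means differed by 0.017, between -0.0019 and 0.046 with any 1 array left out. After quantile normalization, which forces all arrays onto 1 distribution, the difference in this ratio was 0.11.

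In the beta cluster the result turned on the gene and on the probe set. The log2 ratio of Hbb-y on the family probe set to Hbb-b2 was 5.31, 4.94 and 4.96 in branching, against 5.25, 5.42 and 5.30 in non-branching, a difference of -0.25 with overlap between the regions. With the single-gene probe set it was 3.76, 3.45 and 3.63 in branching, against 3.42, 3.42 and 3.31 in non-branching. That difference was 0.24 in the other direction, without overlap, so the data give no direction for Hbb-y relative to Hbb-b2. The shared adult beta probe set was not used in these ratios. Its log2 difference of 0.98 was close to the 0.94 of Hbb-y on the single-gene probe set.

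For Hbb-bh1 relative to Hbb-b2 the log2 ratio was -0.11, -1.03 and -0.07 in branching, against 0.17, 0.58 and -0.21 in non-branching. The mean was lower in branching by 0.58, but non-branching replicate 3 lay below 2 of the branching arrays, so the regions overlapped. Without branching replicate 2 the difference shrank to -0.27, and without non-branching replicate 2 to -0.38. Against its embryonic neighbour Hbb-y on the single-gene probe set, Hbb-bh1 had log2 ratios of -3.87, -4.49 and -3.70 in branching, against -3.25, -2.84 and -3.51 in non-branching. This difference of -0.82 came without overlap between the regions, and lay between -0.98 and -0.59 with any 1 array left out. Against Hbb-y on the family probe set the difference was -0.33, the regions overlapped, and its size rested on single arrays: leaving out branching replicate 2 gave -0.079 and leaving out branching replicate 3 gave -0.55, while leaving out non-branching replicate 2 gave -0.18 and non-branching replicate 3 gave -0.51.

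Averaged over the genes of each kind, the embryonic minus adult type log2 signal was 1.19, 0.83 and 1.14 in branching, against 1.35, 1.49 and 1.21 in non-branching. All branching values lay below all non-branching values, by 0.29 in the mean (0.18 without branching replicate 2). Hbb-bh1 and the family probe set of Hbb-y both enter this average. With Hbb-y read by its single-gene probe set, an alternative chosen after seeing the data, the difference was -0.13 and the regions overlapped. The direction between embryonic and adult type chains was thus not the same for every pair of probe sets.

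**Figure D3:**
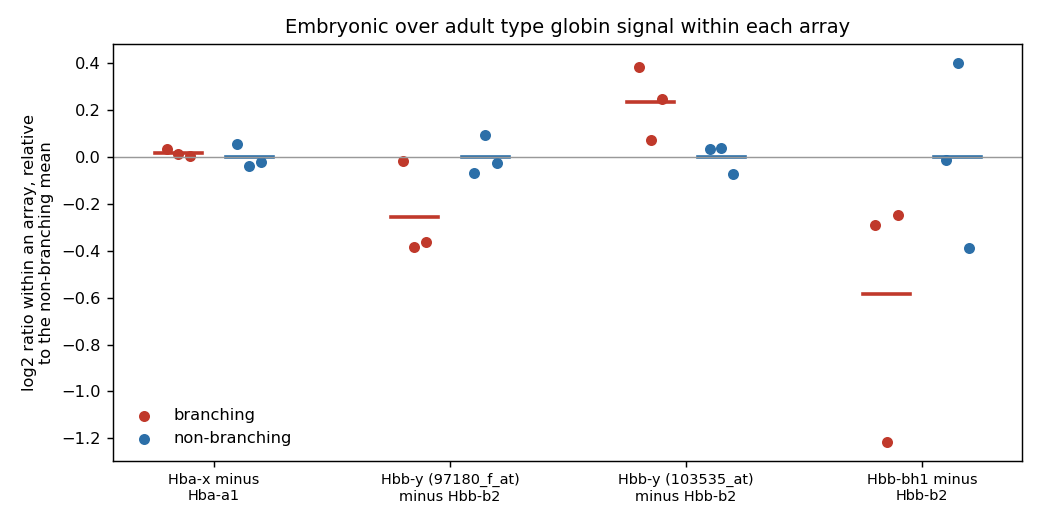
Log2 ratio of an embryonic to an adult type globin signal within each array, shown relative to the non-branching mean, with branching in red and non-branching in blue; points are arrays and bars are means of 3. The alpha cluster ratio differs little (0.017), the 2 probe sets of Hbb-y move in opposite directions (-0.25 and 0.24), and Hbb-bh1 spreads widely around a difference of -0.58.

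Most other red cell genes did not pass, and they differed in direction. Of 17 tested genes for the red cell membrane, transport and enzymes, 1 rose, none fell and 16 did not pass, with a median log2 difference of 0.07. The gene that rose was Car2, a carbonic anhydrase of red cells that other tissues also express. Car2 had a signal of 1394, 1348 and 1404 in branching, against 530, 450 and 482 in non-branching (1.51 ± 0.14, limma adjusted p = 0.00122). Of 11 tested genes of heme synthesis and breakdown, none passed in either direction, and the median was -0.08. The genes with the smallest p were Alad (0.37 ± 0.12, limma adjusted p = 0.178) and Urod (-0.44 ± 0.19, adjusted p = 0.312), both enzymes of heme synthesis, and they pointed in opposite directions.

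Further genes of these lists that are typical of red cells, 12 in all, were picked out after their values were seen, and they did not point one way. Slc4a1, the band 3 anion exchanger of the red cell membrane, read 653.7, 710.5 and 769.5 in branching, against 417, 330 and 421 in non-branching. Its regions did not overlap and its log2 difference of 0.88 ± 0.19 was of the size seen for the globins, but it did not pass (limma adjusted p = 0.0526). It did pass when the dimmer 50% of the array was dropped (0.0327) and with array weights (0.0384). Rhag, a Rh-associated membrane protein gene, had 283, 362 and 275 in branching, against 218, 184.5 and 186.5 in non-branching, again without overlap and without a pass (adjusted p = 0.332). Alas2, the red cell form of the first enzyme of heme synthesis, had 589, 629 and 774.5 in branching, against 418, 290.4 and 998 in non-branching. Its highest and its lowest value were both in non-branching (0.41 ± 0.39, adjusted p = 0.698). Lower mean log2 signals in branching were found for the erythropoietin receptor gene Epor (-0.90 ± 0.55, adjusted p = 0.510) and for Pklr, the pyruvate kinase gene of liver and red cells (-0.54 ± 0.68, adjusted p = 0.782). Dmtn and Ank1, genes of the red cell skeleton, differed by -0.16 and -0.084, and Rhd, a Rh blood group gene, by 0.075, all with overlap. Bpgm, the bisphosphoglycerate mutase gene of red cells, differed by 1.20 ± 0.64 (adjusted p = 0.435), also with overlap. Fech, the last enzyme of heme synthesis, Epb42, a membrane skeleton gene, and Car1, a carbonic anhydrase gene, were below background in both regions.

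To set the globins against these genes, the median log2 signal of the 27 red cell and heme genes above background was taken on each array. It was 9.10, 9.13 and 9.05 in branching, against 8.92, 8.54 and 8.72 in non-branching, higher by 0.37 and without overlap. The gene that stood at this median was not the same on every array. It was Bpgm on branching replicate 1 and Urod on branching replicate 2, for example. The 0.37 is thus no rise of a fixed set of genes. The median of the single genes' differences was near 0 in both lists (-0.08 for heme and 0.07 for red cell genes). Values relative to this median therefore do not measure the globins against a fixed set of red cell genes. The 27 genes also include Prdx2, Cd24a and Tfrc, which many other cells express. Relative to the median, Hba-x was higher in branching by 0.47, Hba-a1 by 0.45 and Hbb-b2 by 0.34 on the log2 scale. Each of these was without overlap between the regions. Hbb-y was higher by 0.087 on the family probe set, with overlap, and by 0.58 on the single-gene probe set. The family probe set turned to -0.044 without non-branching replicate 1 and reached 0.18 on leaving out non-branching replicate 2. Hbb-bh1 was lower by 0.24, with overlap, and its sign rests on single arrays, the difference being -0.46 on leaving out branching replicate 3, but 0.038 on leaving out branching replicate 2 and 0.0047 on leaving out non-branching replicate 2. Over the 5 genes the mean excess was 0.22 with overlap between the regions, and 0.11 without non-branching replicate 1.

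Regulators of erythroid genes and of globin switching gave no call. Of 26 tested, none passed in either direction, 13 had a positive and 13 a negative difference, and the median was -0.02. The smallest p was that of Mafg, a small Maf partner of Nfe2 (branching 432 ± 41.0 and non-branching 208 ± 88.5, SD, n = 3; 1.13 ± 0.33 on the log2 scale, limma adjusted p = 0.136). The DNA methyltransferase gene Dnmt1 differed by 0.28 ± 0.09 (adjusted p = 0.183). Among the erythroid transcription factor genes, picked after their values were seen, Gata1 averaged 207 ± 91.2 in branching and 212 ± 152 in non-branching, and Klf1 averaged 251 ± 181 in branching and 280.1 ± 96.1 in non-branching; in both, the spread between arrays exceeded the difference (adjusted p = 0.913 for Gata1 and 0.787 for Klf1), and its sign changed with 1 array left out.

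**Figure D4:**
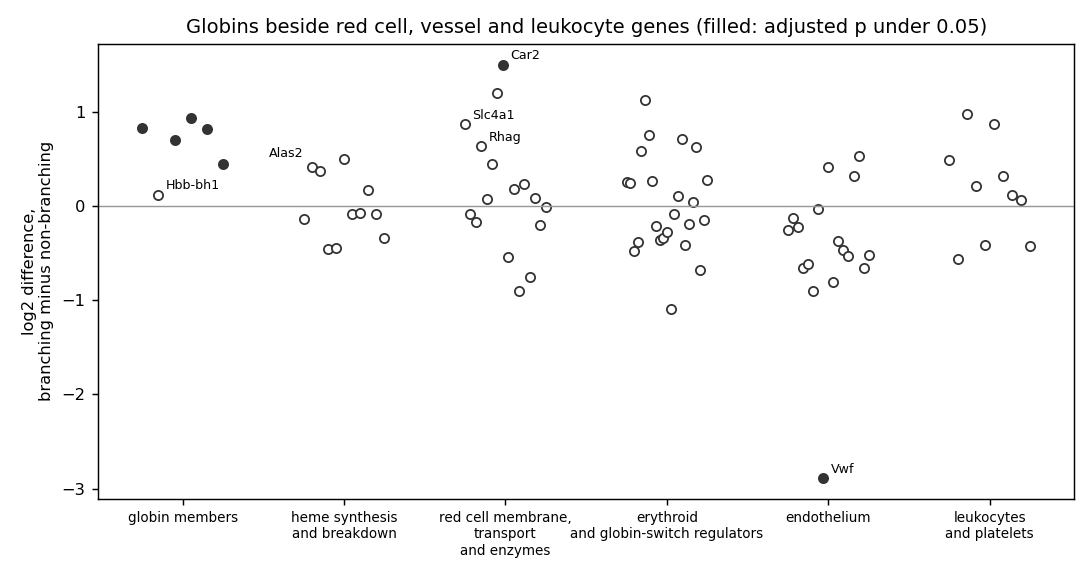
Log2 difference (branching minus non-branching) of each tested gene, excluding genes below background in both regions, for the globin members and 5 gene lists; filled points have a limma adjusted p under 0.05. The filled points are 5 globin probe sets, Car2 (1.51) and Vwf (-2.89, a fitted value that is no bound on its fold since its branching signal is at background).

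Among the tested genes of the red cell, heme, endothelial and leukocyte lists only Car2 and Vwf passed, and the summed signals are given here beside the globins. The summed signal of 19 red cell genes was 26572 to 27841 in branching, against 23877 to 24781 in non-branching. Prdx2, Cd24a and Tfrc, which many other cells express and none of which passed, made up 68.0% to 72.4% of that sum. Without these 3 genes it was 7679 to 8497 in branching, against 6600 to 7126 in non-branching. The 16 genes left include Car2, which other tissues also express, with a mean of 1382 in branching, against 487 in non-branching. The reduced sum is therefore not one of red cells alone. Of the 17 tested genes of the whole list, 9 differed upward and 8 downward in branching. That of 12 heme genes was 6429 to 6820 in branching, against 6203 to 6932 in non-branching. The summed signal of 18 endothelial genes was lower, at 8417 to 8880 in branching, against 9654 to 10004 in non-branching. Of the 18, 1 fell, none rose and 17 did not pass, with a median of -0.42. The gene that fell was Vwf, the von Willebrand factor gene, at least 2.55-fold lower in branching (limma adjusted p = 0.00851), its signal being 52 ± 14.8 in branching, which is below background, against 383 ± 88.8 in non-branching. The call was lost without non-branching replicate 2 (adjusted p = 0.0604) and with no variance shared between probe sets (0.0827). Pecam1, a general endothelial adhesion gene picked after its values were seen, differed by -0.26 ± 0.20 (adjusted p = 0.625).

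Of 14 leukocyte and platelet genes tested none passed, with a median of 0.11. Those with the smallest p were Mpo, the myeloperoxidase gene (0.98 ± 0.47, limma adjusted p = 0.374, non-branching below background), and Csf1r, the receptor gene of macrophages (0.49 ± 0.25, adjusted p = 0.404), both without overlap and higher in branching; summed over the 19 on the array they gave 3646 to 4322 in branching, against 3548 to 3910 in non-branching. Ptprc, which marks all leukocytes and was also picked later, was below background in both regions, as were 9 of the 19 genes. Of 8 tested genes of fetal liver and gut none passed, with a median of 0.28, and 11 of 15 on the array were below background in both regions. Alb, the albumin gene of liver, had a mean of 176 ± 11.2 in branching and 110 ± 52.9 in non-branching, where it was below background (adjusted p = 0.487). Apoa2, an apolipoprotein gene, was below background in both regions (adjusted p = 0.686). Of 14 tested lung epithelium and mesenchyme genes, 2 fell (Tcf21 and Wnt5a), none rose and 12 did not pass. Wnt5a, a signalling gene of the mesenchyme, was below background in branching, and its call (adjusted p = 0.0175) was lost without branching replicate 3 (0.0553), without non-branching replicate 2 (0.0518) and with no variance shared between probe sets (0.0827). Wnt5a was tested in only 4 of the 6 omissions of an array and passed in 2 of them. In the other omissions it was too dim to be tested. The part of blood content, vessel content and dissection in the globin differences was not tested.

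Among the other genes of globin-fold, haemoglobin-binding or heme-binding proteins, Hp, the haptoglobin gene, was the 1 tested and did not pass (-0.58 ± 0.26, limma adjusted p = 0.342). Mb, the myoglobin gene of muscle, and Hpx, the hemopexin gene, both picked later, were below background in both regions. The log2 signals of 5576 genes over the 6 arrays were compared with the mean profile of the 3 embryonic globin genes, with Hbb-y on its family probe set. Hbb-bh1, whose arrays were mixed between the regions, enters this profile with the same weight as the others. The most alike were Gpn1 (Pearson r = 0.993), Pspn (0.989), Pold2 (0.982), Fdps (0.980), Hsp90b1 (0.978), Cdc42se2 (0.974), Sfxn1 (0.972) and Mcm7 (0.971). As the highest of so many genes over 6 arrays in 2 regions, these values are a description and show no relation. Of these 8 genes Fdps was the 1 that passed (adjusted p = 0.0480), and 5 of the 6 omissions of an array ended that call. Hba-x itself correlated over the same arrays at 0.982 with Hbb-y on the single-gene probe set, at 0.925 with Hbb-b2 and at 0.18 with Hbb-bh1.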

How the data were processed

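Per array, the file deposited by the authors gives 1 linear intensity for every probe set; the authors' steps before deposit are not given in the sources used here. Array means without the lowest and highest 2% of values were all 500.3, and medians ran from 212 to 229, so the arrays had been scaled alike; this scaling was kept. Of 12488 probe sets, 66 controls were left out. Symbols came from the platform annotation (10833 probe sets with 1, 396 with several, 1193 with none). Values under 16 were set to 16, log2 was taken, the dimmest 25% were left out, and 9316 probe sets went into limma 3.58.1 under R 4.3.3 (lmFit, eBayes with a variance trend, two-sided, Benjamini-Hochberg over all tested, threshold 0.05); the code was tested on simulated data. Differences are branching minus non-branching with the standard error of the fit. Background is the 95th percentile (147) of 114 values of 19 bacterial and yeast control probe sets. For a gene with a group below it, the fold uses that group raised to 147. Where several probe sets read 1 gene, the brightest stood for it unless both are given. Members and lists were chosen with earlier results of these data known. Named genes were all members, in each list up to 4 called genes with the largest change or else the 2 with the smallest p, and the 8 genes most like the embryonic globins; others are said to have been picked later. The number of arrays limits the precision.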

Additional observations from a re-analysis of the deposited data

How the results depend on the processing

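Quantile normalization, centring arrays on their median, a floor raised to 64, 16 added instead of a floor, leaving out the dimmer 50% of probe sets and array weights each called the same number of member probe sets, 5 of 6. Without the variance trend limma called 0, with each probe set on its own 1, and with no filter on dim probe sets 3; with 1 array left out the count was 3 to 5. With the replicate number as a block, it was also 3. Whether the same number marks the same lungs is not stated in the labels. Deviations from the region means correlated at -0.0023, 0.0127 and -0.015 between arrays of the same number. Taken over all tested probe sets with 3 arrays per region, these correlations cannot decide whether the arrays are paired. Dropping the trend, the filter or the shared variance, or adding the block, cannot change a log2 difference. Its unchanged size under these settings is therefore no support for the lost calls. Without the trend the differences of the members called in the main fit were 0.84 for Hba-x (limma adjusted p = 0.115), 0.71 for Hbb-b2 (0.170), 0.94 for Hbb-y on the single-gene probe set (0.0885), 0.82 for Hba-a1 (0.115) and 0.45 for Hbb-y on the family probe set (0.290). On its own, Hba-x had an adjusted p of 0.0790, Hba-a1 0.0737, Hbb-b2 0.117 and the family probe set 0.0908. Under the replicate block Wnt5a lost its call (0.0688), Hbb-b2 had 0.0678 and the family probe set 0.0777, and with no filter 0.0503 and 0.122. With 1 array left out the log2 difference ran from 0.65 to 0.79 for Hbb-b2, from 0.42 to 0.49 for the family probe set and from -0.072 to 0.38 for Hbb-bh1, whose sign reversed on leaving out replicate 3 of branching (-0.072) or of non-branching (-0.023). Signs also turned within the ranges for Gata1 (-0.60 to 0.83), Klf1 (-1.05 to 0.30), the endothelial gene Kdr (-0.52 to 0.046, picked after its values were seen), Rhd (-0.36 to 0.58, with -0.055 without branching replicate 2), Pklr (-1.17 to 0.19) and Ank1 (-0.31 to 0.090), none of which passed. Quantile normalization moved the family probe set of Hbb-y to 0.60, which brought it closer to the single-gene probe set (a gap of -0.36, against -0.49). The embryonic minus adult type difference was -0.22 after quantile normalization and -0.29 with 16 added. It was -0.36 to -0.18 with 1 array left out, and -0.21 with a gene's probe sets averaged. Centring cancels in a ratio within an array, and a floor of 64 lies below every member signal. Neither setting could thus change this difference, and its sign under them is no support. In the main setting the beta cluster differed by -0.42, with overlap between the regions, and the alpha cluster by 0.017. The count of all probe sets called higher was 84, against 5 without the trend, 2 with each probe set on its own, 38 with no filter, 44 with the block and 16 to 69 with 1 array left out; the count called lower was 105, against 17, 9, 62, 70 and 38 to 98. Signals near the top of the scale may understate a change, and this was not tested.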
